A study of Caenorhabditis elegans with 9 samples.

Results

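The open chromatin around 10 neuron terminal selector genes of Caenorhabditis elegans is described here: unc-86, mec-3, unc-3, unc-4, unc-30, unc-42, ttx-3, che-1, ast-1 and lim-4. Earlier results of these data were known when the 10 genes were chosen, out of 19971 protein-coding genes. They were chosen by name and not by a measured value. Their sites were found by gene symbol in the authors' tables that assign each noncoding DNase I hypersensitive site (DHS) to a gene. A DHS is a short stretch of DNA that DNase I cuts readily in isolated nuclei because it is not packed tightly. Of the 10 genes, 8 had a noncoding DHS in at least 1 stage, with 21 DHS in larvae in L1 arrest and 38 in embryos. mec-3 and unc-4 had none in either stage.

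A terminal selector is a transcription factor that switches on, and then keeps on, the genes that give a mature neuron type its identity, such as its transmitter, receptors and channels. It acts by binding a shared short motif in the regulatory DNA of those genes, and many terminal selectors also bind their own gene, which keeps them active for the life of the neuron. In the worm, most neurons are born during embryogenesis, and the selector of a neuron type is usually first expressed around the birth of that neuron. The textbook lineage places neuron births later than the stage of about 40 cells.

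DNase-seq was done on nuclei of the wild-type N2 strain. Larvae in L1 arrest, newly hatched animals held without food, gave 5 replicates, and embryos, labelled as mid-embryogenesis at roughly 40 cells, gave 4 replicates. No fed larvae were among the samples. Each sample was pooled whole animals, so the few neurons that use a given selector are mixed with all other cells. Fewer nuclei open at a site and less opening per nucleus cannot be told apart. The 2 stages also differ in hatching, feeding state, age and cell composition, which cannot be told apart either.

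The authors merged the replicates of each stage into 1 list, so no difference below could be set against the spread between replicates, and no test was made. The L1 arrest list held 16084 noncoding DHS and the embryo list 26644. Each DHS carries a deposited score whose scale is not given, and it is used here as a percentile within the list of its own stage, where 100 is the highest. Pieces split from 1 DHS share its score, so the score of an entry under 150 bp wide may include DNA outside the noncoding list. The highest-ranked entries of ast-1, unc-42 and ttx-3 are among these narrower ones. The number of reads behind a site is unknown. All positions are in the ce10 genome build and count from 1, and distances to a gene are those of the authors' tables, which give no strand.

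Every selector gene with a DHS had fewer in L1 arrest than in the embryo. ast-1 had 4 DHS in L1 arrest and 10 in the embryo, unc-42 2 and 6, and unc-3 4 and 6. unc-30 and ttx-3 had 4 and 5 each, and unc-86 had 3 and 4. che-1 and lim-4 had 0 in L1 arrest and 1 in the embryo. The embryo list is the longer of the 2, and L1 DHS made up 35.6% of the selector genes' DHS of both stages, against 37.5% over all coding genes. Fewer L1 than embryo DHS was also the usual case, in 60.8% of the 10825 coding genes with any DHS. With the embryo list reduced by score to the length of the L1 list, ast-1, unc-30, ttx-3 and lim-4 still had fewer in L1 arrest, at 4 against 8, 4 against 5, 4 against 5 and 0 against 1. unc-3 and unc-42 were then equal, unc-86 had 3 against 2, and che-1 had none. At that list length, fewer L1 than embryo DHS was found in 26.7% of the 8807 coding genes with any, so the share also dropped over all genes.

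A noncoding DHS was present in L1 arrest at 6 of the 10 selector genes, against 38.9% of coding genes, and in the embryo at 8 of the 10, against 52.5%. No DHS in either stage, as at mec-3 and unc-4, was the case for 45.8% of coding genes. The embryo number of ast-1 was reached by 1.12% of coding genes, that of unc-3 and unc-42 by 4.19%, and that of unc-30 and ttx-3 by 6.42%. In L1 arrest, 4 DHS or more were found at 4.59% of coding genes.

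**Figure D1:**
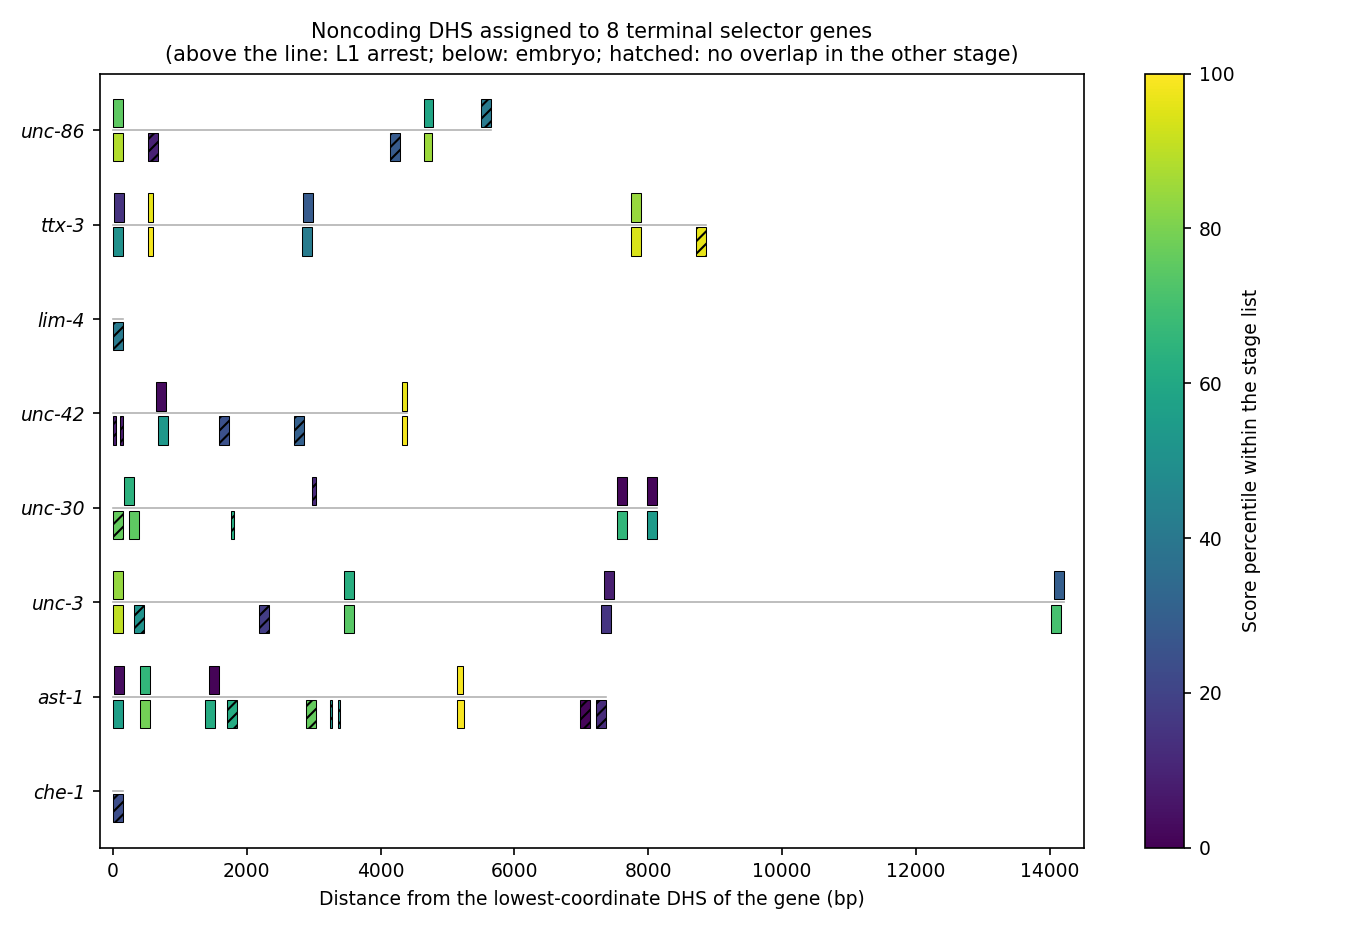
Noncoding DHS of the 8 selector genes with any, drawn to scale along the x axis as distance in bp from the lowest-coordinate DHS of each gene, with L1 arrest above the line and embryo below. Fill gives the score percentile within the list of the stage, and hatching marks a DHS with no noncoding overlap in the other stage. The unmatched boxes lie mostly in the embryo rows, with 2 in L1 arrest, at unc-86 and unc-30.

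The L1 sites of the selector genes were largely sites already present in the embryo. Of their 21 L1 DHS, 19 overlapped an embryo noncoding DHS by at least 1 bp, a share of 90.5%, against 88.6% of all L1 noncoding DHS. Of the 38 embryo DHS, 19 overlapped an L1 DHS, a share of 50.0%, against 53.5% of all embryo noncoding DHS. Neither share stands far from its list. In 11 of the 19 overlapping pairs the DHS began at the same base in both stages, and over all 14249 such pairs 44.9% did. The starts that differed within the 19 pairs lay apart by multiples of 20 bp. Equal starts or borders, here and below, therefore do not show agreement to the base.

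In all 19 pairs the L1 DHS had a lower percentile in its list than its embryo partner had in its own, while 17.6% of all pairs had a higher one in L1 arrest. The median difference was -13.09 percentile points for the selector genes and -14.1 for all pairs, so its size was near the usual one. That difference includes the weaker sites at the bottom of the longer embryo list. Ranked only among the DHS present in both stages, 6 of the 19 pairs were higher in L1 arrest, against 45.1% of all pairs, and the median difference was -5.90 points against -1.19. The differences ran from -40.3 points at a distal unc-30 site to 10.8 at an intronic ttx-3 site.

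**Figure D2:**
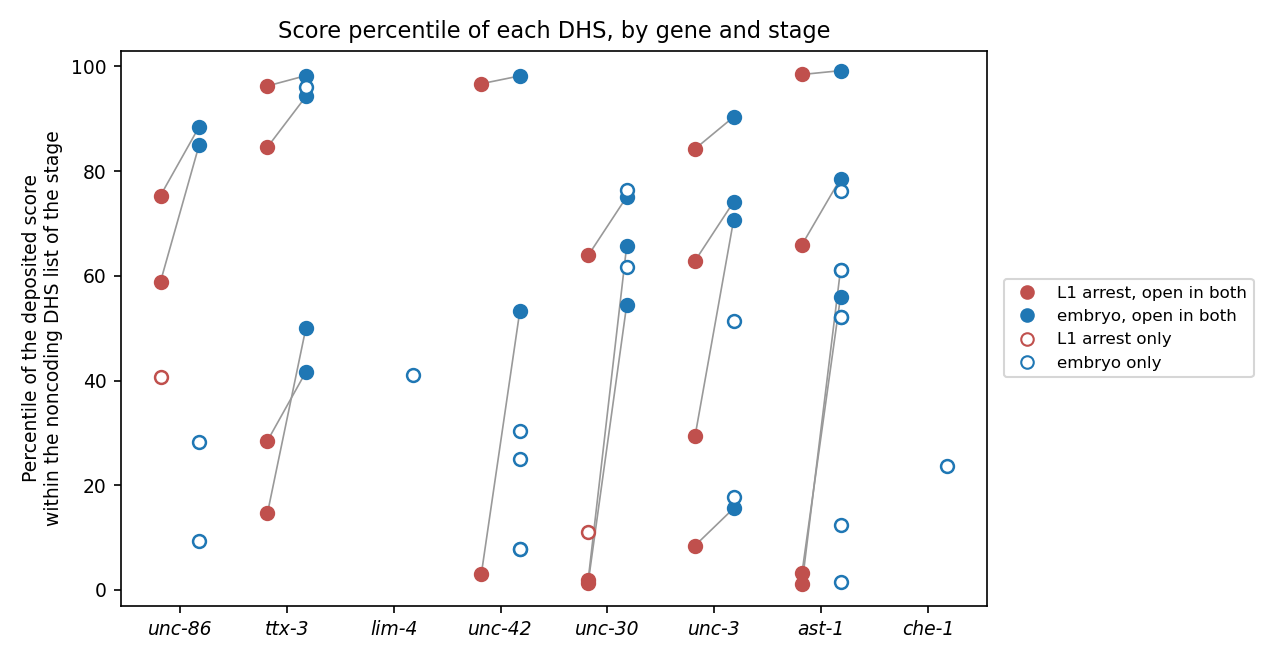
Percentile of the deposited score (y axis, 0 to 100, within the noncoding list of the stage) for every DHS of each selector gene, with L1 arrest left and embryo right; filled points are open in both stages, lines join overlapping DHS and open points have no partner. Every line runs lower on the L1 arrest side, and ttx-3, unc-42 and ast-1 each have a DHS at percentile 96.3 or higher in both stages.

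The POU homeodomain gene unc-86 acts in many sensory, inter- and motor neurons, among them the touch receptor neurons. Its DHS beside the edge of the gene, at a distance of 0 bp, stood at the 58.9th percentile in L1 arrest (chrIII:8216337-8216470) and the 84.9th in the embryo (chrIII:8216337-8216450). A DHS on the other side of the gene, 929 bp away (chrIII:8211681-8211830), stood at 75.3 in L1 arrest and 88.4 in the embryo and was the highest of the gene in each stage. Both sites were therefore found at both stages. An embryo DHS at 409 bp (chrIII:8212201-8212350, percentile 9.34) and an intronic one (chrIII:8215821-8215970, percentile 28.2) had no L1 partner.

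unc-86 also held a site that the authors list as L1-arrest-associated, that is, an L1 noncoding DHS without an embryo one. It lay 845 bp from the gene at chrIII:8217181-8217330, at percentile 40.8, and 730 bp beyond the nearest embryo noncoding DHS. No embryo DHS of any kind overlapped it, and it held 1 footprint. It was 1 of 2 such sites at the selector genes, with that of unc-30. They made up 9.52% of the genes' 21 L1 DHS, against 11.4% of the whole L1 list, and 2 of the 10 genes had one, against 7.19% of coding genes.

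mec-3, a LIM homeodomain gene that works with UNC-86 in touch receptor neurons, had no noncoding DHS. Going outward from it along the chromosome, the nearest coding genes with an assigned DHS were ins-1, the sixth gene on one side, and bgnt-1.1, the third on the other, by the gene order of the WBcel235 gene table. The 38194 bp between their DHS held 1 DHS of any kind in L1 arrest and 1 in the embryo, an overlapping exonic pair (chrIV:10438061-10438210 and chrIV:10438041-10438190). At unc-4 the corresponding stretch was 8258 bp, between the DHS of C08H9.16 and F26C11.3, and held no DHS of any kind in either stage. unc-4 encodes a paired-like homeodomain factor of ventral cord motor neurons of the VA class, where it acts with the corepressor UNC-37.

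ttx-3, a LIM homeodomain gene required with ceh-10 for the AIY interneurons, had a median percentile of 56.5 in L1 arrest and 94.3 in the embryo. The embryo median was the highest of the 8 genes, and the L1 median was below that of unc-86, 58.9. Its intronic DHS at chrX:11766481-11766556 stood at 96.3 in L1 arrest and 98.2 in the embryo and had the same borders in each. A distal DHS 4323 bp from the gene (chrX:11773701-11773850) also had the same borders, with percentiles of 84.6 and 94.3. The other intronic DHS stood at 14.7 and 28.5 in L1 arrest, and their embryo partners at 50.1 and 41.7.

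Farther out, at 5303 bp from ttx-3, the embryo had a DHS (chrX:11774681-11774830) at percentile 96.2, and no L1 DHS of any kind overlapped it. Of the 1024 embryo noncoding DHS with at least its score, 32 lacked any overlapping L1 DHS, which is 3.12%. The ttx-3 site is at the lower limit of these 1024, and the share among sites of similar score was not counted. It was the highest of the selector genes' 19 embryo DHS without an L1 overlap. Their median percentile was 30.4, against 27.3 for all such embryo DHS. Between the DHS of lact-7 and rsd-3, around ttx-3, lay 5 DHS of any kind in L1 arrest, with 0 exonic. The embryo had 7 there, with 1 exonic, so not all were assigned to ttx-3.

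lim-4, a LIM homeodomain gene that specifies the AWB olfactory neurons, had 1 DHS, in the embryo alone. It lay 26 bp from the gene (chrX:3873321-3873470) at percentile 41.0. No L1 DHS of any kind lay between the DHS of the flanking genes ceh-18 and F47F2.1, a stretch of 17370 bp.

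unc-42, a paired-class homeodomain gene of command interneurons and other neurons, kept a strong site at the edge of the gene. The DHS at chrV:9769362-9769430 stood at percentile 96.7 in L1 arrest and 98.2 in the embryo, with the same borders. The other L1 DHS of unc-42, in an intron (chrV:9765681-9765830), stood at 2.98, near the bottom of the list, and its embryo partner at 53.2. The remaining 4 embryo entries were intronic, at percentiles of 7.73 to 30.4, and none had an L1 partner. The lowest pair of them, chrV:9765041-9765089 and chrV:9765146-9765190, share a score and are parts of 1 DHS whose middle is not in the noncoding list.

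unc-30 is a Pitx-type homeodomain gene of the GABAergic D-type motor neurons. Near the gene, the L1 DHS at chrIV:13118781-13118930 stood at percentile 63.9 and overlapped by 70 bp an embryo DHS at chrIV:13118861-13119010 at percentile 75.1. An embryo DHS farther from the gene (chrIV:13118621-13118770, percentile 76.3) ended just short of that L1 DHS and so had no overlapping L1 partner. A 43 bp intronic embryo DHS (chrIV:13120381-13120423, percentile 61.7) had none either. The distal sites of unc-30, at 1774 and 2214 bp, had the same borders in each stage but low L1 ranks. They stood at 1.94 and 1.41 in L1 arrest, and at 65.7 and 54.4 in the embryo.

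The L1-arrest-associated DHS of unc-30 was a 52 bp intronic part (chrIV:13121601-13121652, percentile 11.1) of a longer L1 DHS (chrIV:13121601-13121750). An embryo DHS that is in the list of all DHS but not in the noncoding list (chrIV:13121641-13121790) overlapped the 52 bp part by 12 bp. It overlapped the longer L1 DHS over most of its length, so this region was called in both stages.

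unc-3 encodes the COE-type factor of the cholinergic ventral cord motor neurons. The highest of its noncoding sites in each stage lay 429 bp from the gene (chrX:14772961-14773110), at percentile 84.3 in L1 arrest (score 364) and 90.4 in the embryo (score 469). An exonic DHS between its noncoding sites (chrX:14783001-14783150) scored higher in each stage, at 429 in L1 arrest and 481 in the embryo. Its intronic DHS at chrX:14776421-14776570 stood at 62.9 and 74.1, and its most distant one, over 3 kb out, at 29.5 in L1 arrest (3457 bp) and 70.7 in the embryo (3417 bp). A weak intronic pair stood at 8.49 and 15.6. The embryo also had DHS at 109 bp from the gene (chrX:14773281-14773430, percentile 51.4) and in an intron (chrX:14775141-14775290, percentile 17.8), without an L1 partner.

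ast-1, an ETS-domain gene needed for the dopaminergic neurons, had the largest number of embryo DHS in the list and the highest-scoring site. The DHS at the edge of the gene stood at percentile 98.5 in L1 arrest (chrII:4134868-4134950, score 1589.9) and 99.2 in the embryo (chrII:4134868-4134970, score 2388). Its 3 L1 intronic DHS stood at 1.10, 3.32 and 66.0, and the embryo partners at 61.2, 56.0 and 78.6. Of the 6 embryo entries without an L1 partner, 4 were intronic, at 52.1 to 76.2, and 2 were distal, at 1834 and 2074 bp, with percentiles of 1.51 and 12.4. Both pieces at 52.1 belong to 1 DHS whose middle is not in the noncoding list. The 16140 bp between the DHS of the flanking genes rhgf-2 and F56D3.1 held 7 DHS of any kind in L1 arrest, with 0 exonic. In the embryo it held 13, with 1 exonic. Some DHS near ast-1 were thus not assigned to it in either stage.

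che-1, the zinc finger gene that specifies the ASE gustatory neurons, had 1 intronic DHS in the embryo (chrI:6519581-6519730) at percentile 23.6. It had no noncoding DHS in L1 arrest. The 22520 bp between the DHS of C55B7.10 and T10E9.4, around che-1, held 4 DHS of any kind in L1 arrest, all exonic. In the embryo this stretch held 5, with 4 exonic, and each exonic L1 DHS overlapped an embryo one. Other coding genes lie in this stretch, and exonic DHS were assigned to no gene. che-1 and lim-4 were 2 of the 8 selector genes with any noncoding DHS to lack one in L1 arrest. That was the case for 28.3% of the 10825 coding genes with any DHS.

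The highest-scoring noncoding DHS of a gene tended to be the same site in each stage. At 5 of the 6 selector genes with at least 2 DHS in each stage the highest L1 and the highest embryo DHS overlapped, unc-30 being the exception. Over 3266 coding genes with at least 2 in each stage the share was 71.2%. The 5 genes were ast-1, unc-42, ttx-3, unc-3 and unc-86.

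By position, 10 of 21 L1 entries and 21 of 38 embryo entries were intronic, shares of 47.6% and 55.3%, against 40.8% and 44.3% over the whole gene tables. Entries under 300 bp from the gene made up 19.0% in L1 arrest and 15.8% in the embryo, against 18.7% and 19.1%.

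Footprints are short stretches inside a DHS with fewer cuts than their surroundings, as a bound protein can leave. After overlapping or touching ones were merged, the selector genes' DHS held 41 in L1 arrest and 72 in the embryo. A footprint was found in 19 of 21 L1 DHS (90.5%), against 84.0% of the list, and in 32 of 38 embryo DHS (84.2%), against 82.0%. The L1 DHS without one were the 52 bp part and the DHS at 2214 bp, both of unc-30. In the embryo, 5 of the 6 without one were parts under 50 bp wide of longer DHS, at ast-1, unc-42 and unc-30, and the sixth was the ast-1 DHS at 2074 bp. The median number was 2 a DHS in each stage, as in the whole lists.

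The footprints with the most negative deposited scores lay at ttx-3 and unc-3. The scale of that score is not given, and it is used here as a rank within the list of merged footprints of a stage, from the most negative. A merged footprint was given the most negative score of its deposited entries, which are 6 to 40 bp long per the series design text. Those merged from more entries had more chances of a low score. The distal ttx-3 site at 4323 bp held a footprint in each stage, of 39 bp in L1 arrest (chrX:11773789-11773827, score -12.9) and 57 bp in the embryo (chrX:11773775-11773831, score -15.8). They were in the lowest 1.41% of L1 and 0.596% of embryo footprints, and were merged from 3 and 8 entries. The embryo-only site at 5303 bp held footprints of 38 bp (score -17.9, lowest 0.440%) and 39 bp (score -7.76, lowest 3.89%). In the strong ttx-3 intron the scores were -7.29 in L1 arrest (34 bp, lowest 5.03%) and -9.90 in the embryo (37 bp, lowest 1.95%).

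At unc-3 the site 429 bp from the gene held 3 footprints in L1 arrest and 5 in the embryo. A stretch at chrX:14773082-14773106 in L1 arrest (score -4.73) lay inside one at chrX:14773077-14773107 in the embryo (score -14.4, lowest 0.714%). In all, 1 of 41 L1 and 6 of 72 embryo footprints of the selector genes were in the lowest 5% of their list. The median score was -3.32 in L1 arrest and -3.55 in the embryo, against -3.41 and -3.47 for all merged footprints.

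**Figure D3:**
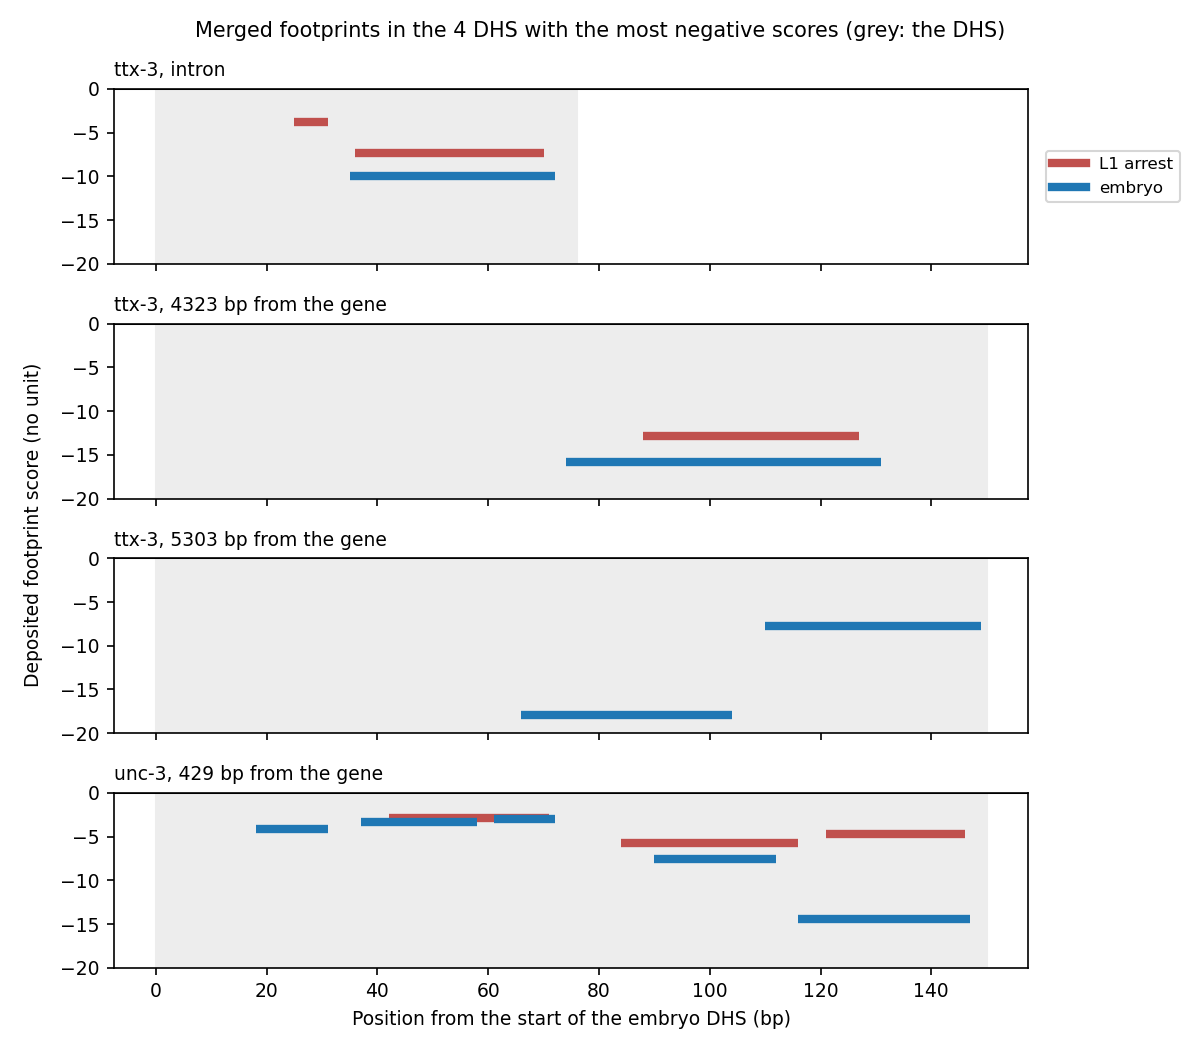
Merged footprints as bars, with position in bp from the start of the embryo DHS (x axis) and deposited score without unit (y axis), in L1 arrest and embryo, for the 4 selector gene DHS that hold embryo footprints in the lowest 5%. Bars of the stages overlap in the ttx-3 intron, at 4323 bp from ttx-3 and at unc-3, and the site at 5303 bp has embryo bars alone. The score of a bar is the most negative among its merged entries.

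Within the stretches open in both stages, 29 of 39 L1 footprints of the selector genes overlapped an embryo footprint, a share of 74.4%, against 78.2% over all such stretches. In the other direction 29 of 42 embryo footprints overlapped an L1 one, 69.0% against 63.8%. All 3 L1 footprints met an embryo one at the ast-1 gene edge, at the unc-3 site 429 bp out, at the unc-86 site 929 bp out and at the unc-30 site 1774 bp out. No footprint of one stage met one of the other at the intronic pairs chrX:14776421-14776570 and chrX:14780301-14780450 of unc-3 and chrII:4130121-4130270 of ast-1, as the L1 list gives them.

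The authors' embryo motif lists name 3 of the 10 selector genes among the genes near a motif: che-1 under 2 motifs, and unc-30 and ast-1 under 1 each, out of 57 motifs. At least 1 motif lists 10.5% of coding genes, and 19.9% of those with an embryo noncoding DHS. The words behind the motifs that list unc-30 and ast-1 are shown as the deposited sequences tied to these genes. They are not known binding sites of either factor. Capitals mark the base that varies between the words of a motif.
Motif listing unc-30, word 1: cggcCgcggc
Motif listing unc-30, word 2: cggcAgcggc
Motif listing ast-1, word 1: Gctccgcc
Motif listing ast-1, word 2: Actccgcc
Motif listing ast-1, word 3: Tctccgcc

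The motif listing unc-30 came from noncoding DHS. Per the authors' deposited motif list its words were in 37 sequences against 2 control sequences, with an E-value of 0.0045, and 190 genes are listed under it. The motif listing ast-1 came from footprints, with 99 sequences against 18 controls, an E-value of 2.6e-09 and 51 genes in the authors' deposited tables. Under the 2 che-1 motifs, from intronic and from noncoding DHS, the authors' deposited tables list 25 and 199 genes. Which word lies near which gene is not stated there. The lists per motif held 8 to 202 genes, with a median of 39. The motif lists used here are of the embryo.

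Genes listed for this report as targets of these selectors were counted in the same way. The regulation of a listed gene by its selector was not tested here. Of 58 textbook targets, 33 had a noncoding DHS in L1 arrest (56.9%, against 38.9% of coding genes) and 45 in the embryo (77.6%, against 52.5%). Of the 45 targets with any DHS, 28 had fewer in L1 than in the embryo, against 60.8% of the 10825 coding genes with any. More in L1 was the case for 2 targets and for 772 coding genes. No target had an L1 DHS without an embryo one, and 10475 of the 10825 coding genes with any had one in the embryo. Their L1 DHS made up 35.2% of those of both stages, against 37.5% for all coding genes.

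Among targets of UNC-86 and MEC-3, mec-2, a stomatin-like part of the touch channel complex, had 6 DHS in L1 arrest and 7 in the embryo. Among targets of UNC-3, the acetylcholinesterase gene ace-2 had 2 and 5, the potassium channel gene twk-2 2 and 7, and the TGF-beta family gene unc-129 1 and 1. unc-17 and cha-1, for acetylcholine transport and synthesis, share a locus. In each stage the 4 DHS assigned to unc-17 were also those assigned to cha-1. The glutamate receptor gene glr-4, listed for UNC-4 and UNC-42, had 5 and 8. For UNC-30 and TTX-3, the tyramine receptor gene ser-2 had 4 and 10. The TTX-3 targets kal-1, an anosmin homologue, and sra-11, a chemoreceptor gene, had 4 and 13, and 2 and 1. unc-25, the GABA-synthesising glutamate decarboxylase gene and a target of UNC-30, had 3 and 2. Thus unc-25 and sra-11 were the targets with more L1 than embryo DHS. ceh-36, an Otx-type gene listed for CHE-1 and LIM-4, had 4 in each stage.

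Of the 5 targets of AST-1, the genes of dopamine synthesis and transport, 2 had a DHS in L1 arrest (40.0%, against 38.9% of coding genes) and 5 had one in the embryo (against 52.5%). A DHS in the embryo was likewise found at all 4 targets of UNC-4 and all 6 of UNC-42. The lowest embryo shares were 6 of 10 targets of UNC-86 and MEC-3 and 3 of 5 targets of LIM-4, and CHE-1 had 9 of 13. cat-1, the vesicular monoamine transporter gene, had 3 in L1 arrest and 8 in the embryo, and cat-4, a GTP cyclohydrolase gene, 1 and 1. L1-arrest-associated DHS were assigned to 9 of the 58 targets, which were mec-2, unc-17, cha-1, unc-129, twk-2, unc-25, sra-11, ceh-36 and cat-4, to be read beside 7.19% of coding genes. The site of unc-17 and cha-1 is 1 and the same, so the 9 targets had 8 different sites. The 58 targets had 75 L1 DHS summed over genes, with the 4 of unc-17 and cha-1 counted for each. In the whole L1 list, 11.4% of DHS were L1-arrest-associated. A gene without an L1 DHS cannot have such a site, so the share over all coding genes is a low baseline for genes with many.

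Of 48 other neuron identity factors, 35 had a DHS in L1 arrest (72.9%, against 38.9% of coding genes) and 44 in the embryo (91.7%, against 52.5%). None had more in L1 arrest, 39 had fewer and 5 had the same number, and fewer is the case for 60.8% of coding genes with any DHS. The largest embryo numbers were those of 6 genes. The Meis-type gene unc-62 had 10 in L1 arrest and 12 in the embryo, the zinc finger gene die-1 6 and 14, fozi-1 9 and 13, the Hox gene egl-5 7 and 13, egl-43 6 and 11 and zag-1 7 and 11. ceh-37, an Otx-type homeobox gene, had 0 and 6.

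Others with at least 5 embryo DHS were vab-3 (3 in L1 arrest and 9 in the embryo), vab-7, ceh-43 and egl-13 (6 and 9 each), sox-2 (7 and 8), egl-44 and fax-1 (2 and 7 each), lin-11 and pag-3 (5 and 6 each), unc-55 and vab-15 (3 and 5 each), alr-1 (2 and 5) and mab-5 (4 and 5). L1-arrest-associated DHS were found at 5 of the 48 factors, against 7.19% of coding genes, with 2 each at zag-1 and unc-62 and 1 each at ceh-36, ceh-43 and vab-15. ceh-36 is also among the 9 targets with one. By site, the L1-arrest-associated DHS of these 5 factors are to be read beside the 125 L1 DHS of the 48 factors, summed over genes. The share in the whole L1 list was 11.4%. The Hox gene mab-5 was the only one of the 48 with exactly the numbers of a selector gene with at least 2 DHS in each stage, those of unc-30 and ttx-3.

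**Figure D4:**
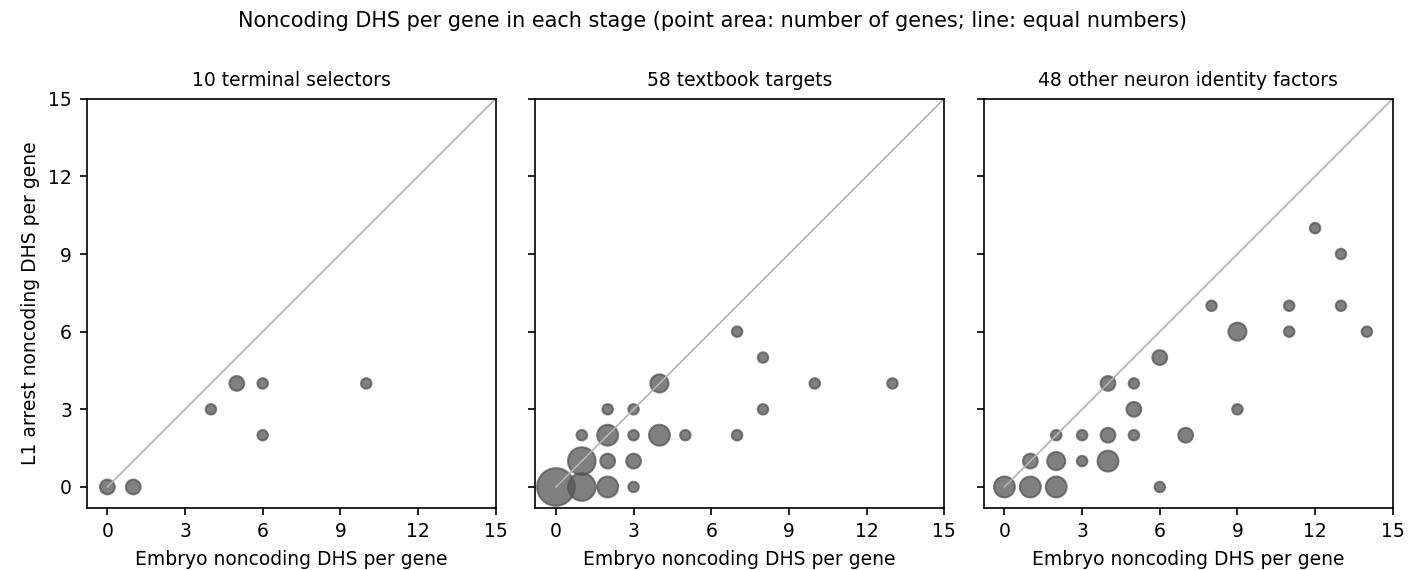
Number of noncoding DHS per gene in L1 arrest (y axis) against the embryo (x axis) for the 10 selector genes, 58 targets and 48 other neuron identity factors, with point area for the number of genes at a position and a line for equal numbers. All selector genes with a DHS lie below the line, and 2 targets lie above it.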

How the data were processed

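Per the series design text, the authors ran the HOTSPOT peak caller (version 3, 150 bp windows) and kept peaks that were reproducible between replicates (IDR 0.1). Peaks on repeats or blacklisted regions were dropped, and the rest were merged per stage and tied to WormBase gene models. DNase2TF supplied the footprints, at an FDR threshold of 0.05. Bowtie 1.0.0 and the ce10 build are named in the submitters' processing notes. Of several DNase I levels tried per nuclei sample, the one with the best enrichment of known enhancers was sequenced. Reads were 50 bp in 3 replicates of each stage and 76 bp in 2 L1 arrest and 1 embryo replicates, per the labels, and this could not be separated in merged lists.

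The deposited score of each DHS and footprint was used as a rank within its list. Merged footprints took the most negative score of their entries. Overlap meant at least 1 bp. Of the gene names, 94.6% (L1 arrest) and 94.8% (embryo) matched coding genes of the WBcel235 RefSeq table by sequence name or symbol, which was used for names and gene order only. Depth is unknown, and shares carry no interval because DHS of a gene are not independent. Counting used Python 3.11.15 and pandas 2.3.3, and the overlap code was tested on simulated data. The planned search for binding motifs was not run, since no genome sequence was used here.

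The members and gene lists were chosen with earlier results of these data known. Named related genes have at least 5 DHS in a stage, an L1-arrest-associated DHS, L1 DHS without embryo ones, or the numbers of a selector gene. Alternatives changed the score limit, list length, gene assignment, width, overlap and footprint rules.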

Additional observations from a re-analysis of the deposited data

How the results depend on the processing

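No paired analysis was possible because the replicate letters are not shared between the stages and the lists are merged, and for the same reason no replicate could be left out. Keeping DHS at or above the median score of their list left 10 of 21 selector gene DHS in L1 arrest and 25 of 38 in the embryo. About 50% of each whole list passes that limit by definition. With the embryo list reduced by score to the L1 length, 4 genes in place of 8 had fewer L1 than embryo DHS, and over all coding genes with any the share was 26.7% in place of 60.8%. Keeping footprints at or below the median score left 12 of 19 L1 DHS with one, and the share over the whole list is not given here. These settings lower counts by construction. The other 20 recounts over all selector genes or targets stayed within 1.5 times, and so did 76 of 90 recounts of single genes. Many of these could not change and say nothing about stability. A gene without a DHS in a stage stays at 0, and each selector gene DHS was assigned to 1 gene only. Of all recounts, 2 kinds were chosen after seeing the data. With split DHS counted once, the embryo total was 36. With the 4 of 21 L1 and 7 of 38 embryo DHS under 100 bp left out, a footprint was found in 16 and 30 of the rest. The share over all DHS of at least 100 bp was not counted. The unknown depth limits every absence: a site missing from a list was not called, which does not show that it was closed.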

Other observations

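Exonic DHS, those in the list of all DHS without a noncoding part, were assigned to no gene in the deposited tables. Between the outermost noncoding DHS of a selector gene, exonic DHS were found at unc-86, unc-3, unc-30 and unc-42. At unc-3 an exonic DHS with the same borders in each stage (chrX:14783001-14783150) stood at percentile 88.2 among all L1 DHS and 90.7 among all embryo DHS. A second unc-3 one (chrX:14777501-14777650, percentile 50.3) was in the embryo list alone. At unc-86 an exonic pair stood at 16.8 in L1 arrest (chrIII:8214341-8214490) and 70.3 in the embryo (chrIII:8214321-8214470), and a further one was at 2.54 in the embryo alone. At unc-42 an exonic DHS (chrV:9766901-9767050, percentile 54.3) was in the embryo list alone.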
